A study of Mus musculus with 29 samples.

Results

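TEAD1 is a transcription factor that binds DNA through its TEA domain at the sequence CATTCC, the MCAT element, and recruits the co-activators YAP1 and WWTR1 (TAZ), which the kinases of the Hippo pathway keep out of the nucleus. In fibroblasts TEAD factors are known for enhancers that also carry AP-1 sites, and for growth and matrix genes such as Ccn1 and Ccn2. The sites examined here are all 14959 peaks of the single list labelled TEAD1-HA, out of 304922 peaks in 28 lists of 24 constructs. They were split by position only. Peaks whose midpoint lay at most 1 kb from where any transcript of a protein-coding gene begins were called promoter peaks, and all others distal. By this rule 6992 peaks were at promoters and 7967 were distal.

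All constructs were HA-tagged factors induced overnight with 500 ng/ml doxycycline from lentiviral transgenes in NIH-3T3 cells, a mouse embryonic fibroblast line, fixed with 1% formaldehyde and precipitated with an anti-HA antibody. In the TEAD1-HA cells mouse TEAD1 with 3 HA tags at its C-terminus was expressed in cells that keep their own, untagged Tead genes. All other groups were made in the same way and differ in the factor, except that in 1 group OCT4-HA was co-expressed with SOX2-YPET, and that FOXA1_RR-HA and FOXA1_SW-HA are mutants of FOXA1. TEAD1-HA has 1 list, so it has no replicate error, and the lists hold positions without read numbers, so the depth behind them is unknown. Duplicate lists, which exist for SOX2-HA, OCT4-HA, FOXA1-HA and BHLHB8-HA, were merged. Cell identity cannot be checked from binding sites, and as given below the MCAT element was less frequent in TEAD1-HA peaks than in control windows, so the sequence of the sites does not identify the factor either. The names used here are those of the labels.

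Almost all TEAD1-HA peaks belonged to 3 kinds of sequence, which were chosen after the values were seen and are therefore described without a test. An alternating run is a stretch of at least 20 bases in which purines (A or G) and pyrimidines (C or T) take turns. A homopurine run is a stretch of at least 30 bases with only purines on 1 strand, and so only pyrimidines on the other. A CpG-rich window has at least 55% G or C and at least 0.65 of the CpG steps that its base composition predicts. Long alternating tracts with CpG steps are known for their ability to adopt the left-handed Z form of DNA, and long homopurine tracts for triplex structures. CpG-rich DNA is the usual sequence of mammalian promoters outside tissue-specific genes, where it is mostly unmethylated. The form and the methylation of the DNA were not measured here.

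The sequences below, on GRCm38 and the forward strand, show what each kind looks like. The first set comes from the widest distal peaks with an alternating run, with the run in capitals, and holds CA or TG repeats broken by CpG steps.
Intergenic, 124200 bp downstream of the start of Ogfrl1, chr1:23256498-23256597: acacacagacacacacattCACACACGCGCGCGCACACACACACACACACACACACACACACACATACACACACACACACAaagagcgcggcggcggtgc
Intergenic, 8095 bp downstream of the start of Dusp7, chr9:106382664-106382763: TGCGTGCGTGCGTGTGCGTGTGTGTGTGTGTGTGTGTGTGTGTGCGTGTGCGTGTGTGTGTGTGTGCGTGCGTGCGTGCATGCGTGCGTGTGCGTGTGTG
Intergenic, nearest to 3110018I06Rik, chr12:106885821-106885920: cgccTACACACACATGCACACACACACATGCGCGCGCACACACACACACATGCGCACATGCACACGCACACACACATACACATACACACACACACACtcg

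The second set comes from the widest distal peaks with a homopurine run, again in capitals, and shows units of 3 or 4 bases repeated many times. No CpG step lies in these windows.
Intron of Sipa1l1, chr12:82282070-82282169: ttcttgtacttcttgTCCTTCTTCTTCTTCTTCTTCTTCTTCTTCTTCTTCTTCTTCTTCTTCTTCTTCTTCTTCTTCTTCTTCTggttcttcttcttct
Intergenic, nearest to Lingo2, chr4:38172632-38172731: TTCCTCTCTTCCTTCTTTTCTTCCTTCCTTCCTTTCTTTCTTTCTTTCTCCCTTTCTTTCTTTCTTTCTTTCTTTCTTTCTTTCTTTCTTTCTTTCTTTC
Intron of Epha3, chr16:63833701-63833800: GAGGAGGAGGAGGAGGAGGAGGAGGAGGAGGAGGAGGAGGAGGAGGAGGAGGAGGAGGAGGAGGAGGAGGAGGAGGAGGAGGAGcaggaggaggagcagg

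The third set comes from the centres of the widest promoter peaks whose central 100 bp hold no untranslated exon, with each CpG step in capitals. Wider promoter peaks at Fam20c, Tlnrd1 and Cdk13 were passed over by this rule. The 100 bases at Zbtb1, which encodes a zinc finger repressor, hold 10 CpG steps, those at Skil, a repressor of TGF-beta signalling, hold 19, and those at N4bp2 hold 13.
Upstream of Zbtb1, chr12:76369970-76370069: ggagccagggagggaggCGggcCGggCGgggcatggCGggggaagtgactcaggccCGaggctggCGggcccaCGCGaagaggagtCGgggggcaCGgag
Upstream of Skil, chr3:31094777-31094876: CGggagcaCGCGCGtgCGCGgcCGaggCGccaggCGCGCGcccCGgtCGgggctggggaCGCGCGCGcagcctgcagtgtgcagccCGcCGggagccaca
At the start of N4bp2, chr5:65764020-65764119: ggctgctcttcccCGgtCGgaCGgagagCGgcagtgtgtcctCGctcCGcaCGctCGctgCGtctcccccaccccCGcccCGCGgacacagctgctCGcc

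In distal peaks, 3232 of 7967 central windows of 200 bp held an alternating run (40.6%, 95% exact interval 39.5 to 41.7%). The same run was found in 4.45% (3.98 to 4.95%) of 7217 control windows, taken 5 kb downstream of the peaks and clear of promoters and of every list. Homopurine runs were found in 3358 distal peaks (42.1%, 41.1 to 43.2%) and in 2.55% (2.20 to 2.94%) of the control windows. A CpG-rich window was found in 1173 distal peaks (14.7%, 14.0 to 15.5%) against 0.263% of control windows. At least 1 of the 3 kinds was present in 92.6% of distal peaks and in 7.03% of control windows, which left 589 distal peaks with none. The runs were nearly exclusive of each other, since only 100 distal peaks held both. These intervals cover counting error over peaks and not the error between libraries.

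Promoter peaks were of another make-up. CpG-rich windows made up 91.4% (90.7 to 92.1%) of the 6992 promoter peaks, against 27.9% (27.2 to 28.6%) of windows on the starts of the 14750 protein-coding genes without a TEAD1-HA promoter peak. Alternating runs were present in 2.86% and homopurine runs in 1.60% of promoter peaks. Over the whole list, 93.4% of peaks carried at least 1 of the 3 kinds.

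**Figure D1:**
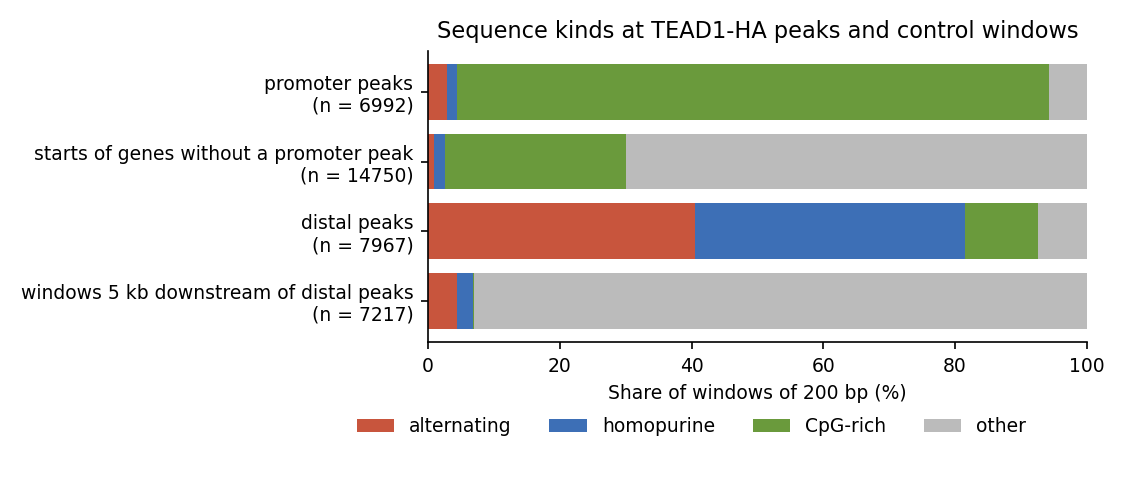
Share of 200 bp windows (x axis, %) assigned to each sequence kind, in the order alternating, homopurine, CpG-rich and other when a window held more than 1 kind, with n windows beside each bar. Distal peaks are mostly runs of either type and promoter peaks mostly CpG-rich, while 93.0% of the windows 5 kb downstream of distal peaks and 69.9% of starts without a peak are of no such kind.

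The runs lay at the middle of the peaks. On average over 10 bp bins, 28.2% of distal peaks had an alternating run 5 bp from the midpoint, and 0.776% had 1 in the outer 100 bp of the 500 bp examined on each side. For homopurine runs these shares were 38.8% and 1.79%. The runs were also long. The quartiles of the longest run were 34 and 60 bases in the alternating group and 107 and 187 bases in the homopurine group, out of 200 bases examined. With a limit of 40 bases in place of 20, alternating runs were still found in 25.9% of distal peaks and in 1.68% of control windows, and with a limit of 100 bases homopurine runs were found in 32.9% and 0.305%.

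**Figure D2:**
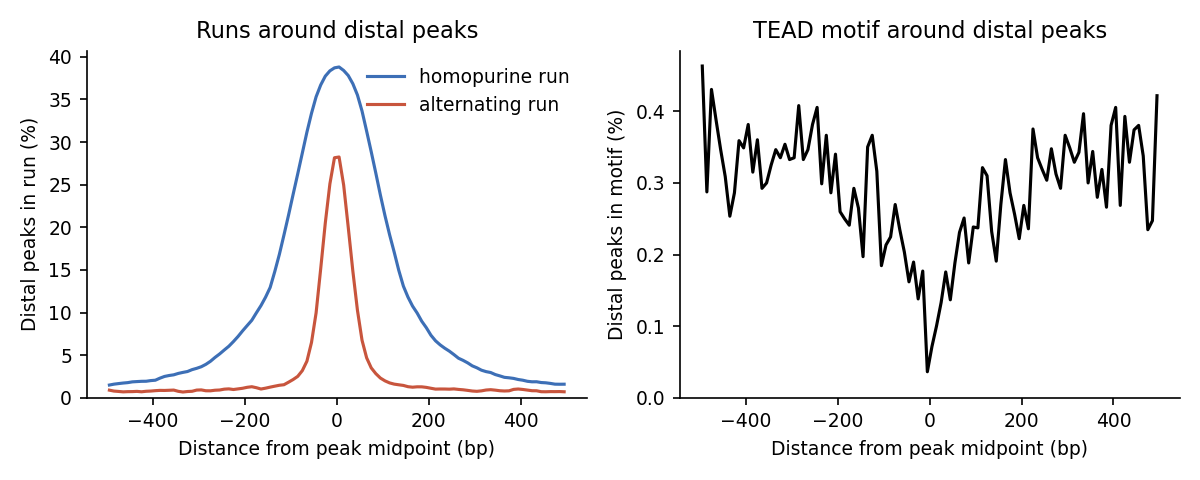
Mean share of the 7967 distal TEAD1-HA peaks (y axis, %) in which a base lies in a run (left) or in CATTCC on either strand (right), in 10 bp bins against the distance from the peak midpoint (x axis, bp). Both kinds of run peak at the midpoint, whereas the MCAT element, which cannot lie in either kind of run, falls to 0.0963% within 20 bp of it from 0.343% in the outer 100 bp on each side.

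CpG steps set occupied alternating runs apart from the rest. In distal peaks the alternating run with the most CpG steps had a median of 6 of them, 2952 of 3232 peaks (91.3%) had a run with at least 4, and 56 peaks (1.73%) had none. In control windows with an alternating run, 76.6% had no CpG step and 2.80% had at least 4. Units of CG repeated 4 times were present in 52.6% of the peaks and 1.87% of the control windows with such runs. Units of CA repeated 6 times were common in both, at 74.7% and 62.0%, and TA repeated 6 times was found in 0.526% and 10.9%.

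Every alternating run of the genome was then counted, whether or not it had a peak. Of 586442 runs, 4875 (0.831%) overlapped a TEAD1-HA peak. Promoter and distal peaks were not told apart in this count, so runs in CpG-rich promoters are included. The share was 0.117% of the 453372 runs with no CpG step, 0.320% with 1, 1.17% with 2, 2.78% with 3, 10.4% with 4, 19.9% with 5 and 23.5% with 6 steps, and then stayed level at 24.5% with 7 and 22.5% with 8 or more. Among the 19299 runs with at least 4 steps it was 18.5%. Within classes of length, 26.0% of runs of 30 to 39 bases and 12.7% of runs of 60 to 99 bases were occupied where they had at least 4 steps, and 0.113% and 0.0443% where they had none. In the other constructs, occupancy of the runs with at least 4 CpG steps ran from 0 to 1.16%, the highest being BHLHB8-HA, which has the longest lists.

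Occupancy of homopurine runs went with their length. Of 361072 such runs in the genome, 5734 (1.59%) overlapped a TEAD1-HA peak. The share was 0.411% at 30 to 39 bases, 0.557% at 40 to 59, 1.56% at 60 to 99 and 14.2% (13.0 to 15.4%) at 300 bases or more, with 3.46%, 6.59% and 9.50% in the 3 classes between, in order of length. Among the repeated units that were counted, none longer than 4 bases, GAAA and GGAA were the most frequent, and a peak can hold more than 1. Units of GAAA repeated 3 times were present in 66.4% of the distal peaks with a homopurine run and in 12.5% of the control windows with 1, and GGAA repeated 3 times in 43.3% and 10.9%. The GA dinucleotide repeated 6 times was found in 21.5% of the peaks and 27.7% of the control windows. The shares of occupied runs count any overlap of at least 1 bp with a promoter or distal peak. Neither they nor the shares of units were corrected for the length of the run. Runs in peaks were longer than those in control windows, which leaves more room for a unit. Homopurine runs of at least 30 bases were in 42.1% of distal peaks and 2.55% of control windows. Those of at least 100 bases were in 32.9% and 0.305%. Most of these peaks lie in marked repeats, as given below, and how well 37-base read pairs map there was not tested.

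ZFP319-HA, a zinc finger protein with 14645 peaks, was the other construct with many such sites, and its sites differed in unit. Homopurine runs were present in 79.8% (79.1 to 80.5%) of its 13006 distal peaks and alternating runs in 8.41% (7.94 to 8.90%). In the remaining 22 constructs these shares ran up to 4.65% and 1.19%, the former in THAP4-HA, where it rests on 2 of 43 distal peaks. In the homopurine peaks of ZFP319-HA, GA repeated 6 times was present in 95.9% and GAAA repeated 3 times in 10.4%, so the more frequent unit was GA there and GAAA in TEAD1-HA. ZFP319-HA occupied 5.86% of homopurine runs of 60 to 99 bases and 3.87% of those of 300 or more, where TEAD1-HA occupied 1.56% and 14.2%. Among alternating runs with at least 4 CpG steps ZFP319-HA occupied 0.404%. These are values of 1 list per construct, with no replicate.

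**Figure D3:**
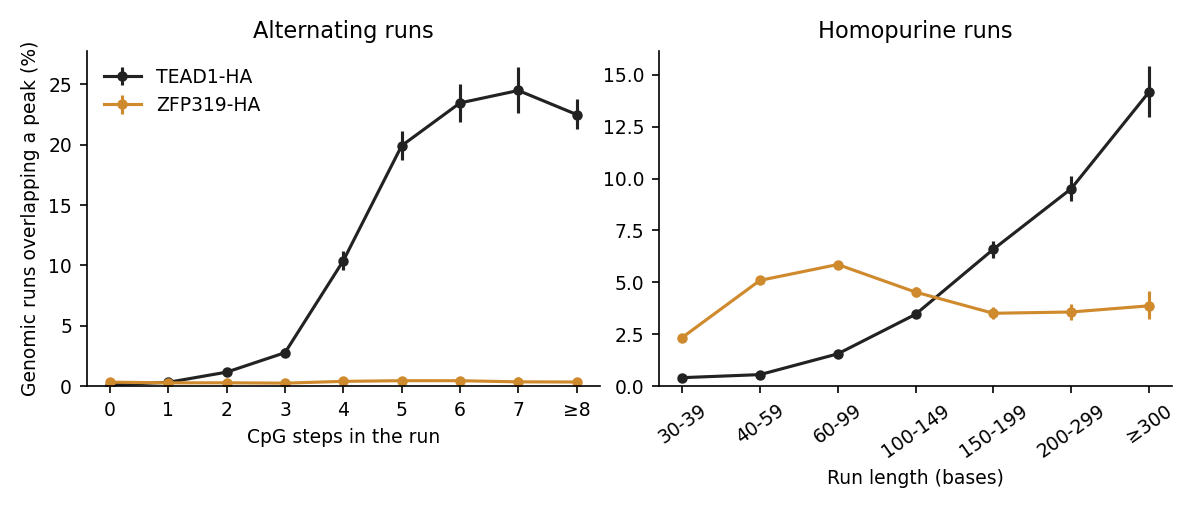
Share of all alternating runs (left) and homopurine runs (right) of the genome that overlap a peak (y axis, %), by CpG steps in the run or by run length in bases (x axes), for TEAD1-HA and ZFP319-HA; bars are 95% exact intervals. TEAD1-HA climbs with CpG steps to 24.5% and with homopurine length to 14.2%, while ZFP319-HA is highest at runs of 60 to 99 bases.

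The TEAD recognition sequence did not mark the sites. CATTCC can lie in neither kind of run by its letters, so runs leave less room for it, and within 20 bp of the midpoint alternating and homopurine runs covered 26.6% and 38.6% of distal peaks. CATTCC on either strand was present in the central 200 bp of 439 distal peaks (5.51%, 5.02 to 6.03%) and in 10.9% (10.2 to 11.7%) of control windows, giving -1.07 as the log2 odds ratio (Fisher's exact test, two-sided, adjusted p = 4.17e-34). At promoters it was present in 236 peaks (3.38%, 2.96 to 3.83%) and in 8.75% (8.30 to 9.22%) of starts of genes without a peak, giving a log2 odds ratio of -1.45 (two-sided Fisher's exact test, adjusted p = 9.04e-53). With peaks and starts compared at like GC content the promoter difference was -0.38 (Mantel-Haenszel odds ratio), still past the threshold of 0.05 after adjustment. Over all 93462 transcript starts CATTCC was found in 8.16% of windows of the same size, and over all such windows of chromosome 19 in 10.7%. Low shares were also found for the longer forms CATTCCA and CATTCCT, at 1.26% and 2.76% of distal peaks and 3.16% and 4.61% of control windows. At promoters they stood at 0.558% and 0.887% of peaks and 2.22% and 3.49% of starts of genes without a peak. At like GC content the promoter log2 odds ratios of the longer forms were -0.21 and -0.46, neither past the threshold after adjustment. Within the alternating kind CATTCC was not less frequent. It was found in 6.78% (5.93 to 7.70%) of 3232 peaks and 5.92% (3.60 to 9.09%) of 321 control windows, which was not tested. The longer forms stood at 2.01% and 3.34% of these peaks and 1.25% and 3.12% of these windows. Distal homopurine peaks held CATTCC in 3.41% of cases and distal CpG-rich peaks in 5.86%. In the 589 distal peaks of no special kind CATTCC stood at 9.68%, against 11.2% of control windows of no special kind (log2 odds ratio -0.23, Fisher's exact test, p = 0.274, a comparison added after the data were seen).

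The AP-1 sequence TGACTCA, to which Fos and Jun proteins bind, was found in 146 distal peaks (1.83%) and in 2.83% of control windows (log2 odds ratio -0.64, Fisher's exact test, adjusted p = 6.26e-05). That difference was not seen in peaks of no special kind, where TGACTCA was present in 3.57% of peaks and 2.91% of windows (log2 odds ratio 0.33, Fisher's exact test, p = 0.373). Nor was it seen within the alternating kind, at 2.66% of peaks and 1.87% of control windows, which was not tested. The GC box GGGCGG, the site of SP and KLF factors, was present in 63.6% of promoter peaks and 28.4% of their controls, and in 7.83% of distal peaks and 1.80% of theirs. This direction turned at like GC content: the log2 odds ratio went from 2.13 to -1.39 at promoters and from 2.21 to -0.39 at distal peaks, where the latter no longer passed the threshold after adjustment. Windows 5 kb downstream of promoter peaks, not matched for GC content, held GGGCGG in 2.96% of cases (log2 odds ratio 5.84). Control windows at starts were centred on the start, while promoter peaks lay mostly downstream of it, so position also differed. CCAAT, the site of NF-Y, was less frequent in both (8.25% against 30.3% and 10.7% against 27.2%), also at like GC content (-1.45 and -1.51). Windows 5 kb downstream of promoter peaks held CCAAT in 24.3% of cases.

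A pair of further sequences was found mostly in the alternating group. The E-box CACGTG was present in 10.3% of distal peaks and 2.29% of control windows (log2 odds ratio 2.28), and the NRF1 sequence GCATGCGC in 5.17% and 0.305% (4.13). At promoters the direction depended on the control. CACGTG was present in 4.33% of promoter peaks, against 4.98% of starts without a peak and 2.35% of windows 5 kb downstream of the promoter peaks. GCATGCGC was present in 1.26%, against 2.17% and 0.460%. Both sequences alternate purines and pyrimidines throughout. Of the 817 distal peaks with CACGTG, 701 had an alternating run, and of the 412 with GCATGCGC, 372 had one. The difference from control windows was also seen within kinds, which was not tested. Within the alternating kind CACGTG was present in 21.7% of distal peaks and 5.92% of control windows, and GCATGCGC in 11.5% and 1.56%. In peaks and windows of no special kind the shares were 5.77% and 2.13% for CACGTG, and 3.06% and 0.253% for GCATGCGC. In the MAX-HA list, whose factor binds E-boxes, 67 of 3836 peaks overlapped TEAD1-HA, and 22 of these TEAD1-HA peaks were distal.

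CATTCC within 50 kb of a known TEAD target gene could be shown for a pair of peaks outside untranslated regions, taken in the order of the gene list, with the element or its reverse complement in capitals. The peak in Ajuba, a LIM protein that restrains LATS kinases, is CpG-rich, and the peak 40630 bp from Myc, a growth regulator, holds a homopurine run of 74 bases.
Intron of Ajuba, chr14:54575794-54575853: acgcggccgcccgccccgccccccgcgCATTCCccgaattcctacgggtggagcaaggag
Intergenic, near Myc, chr15:62028116-62028175: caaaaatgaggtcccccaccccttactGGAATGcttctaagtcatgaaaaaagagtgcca

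Promoter peaks lay just downstream of the start. Their midpoints were at a median of 81 bp downstream (quartiles 9 bp upstream and 205 bp downstream). Between 100 and 250 bp from the nearest start, 1864 peaks were downstream and 455 upstream, and between 250 and 500 bp the numbers were 946 and 205. Promoter peaks had a median width of 448 bp against 301 bp for distal peaks. Of the promoter midpoints, 38.7% fell in untranslated exon sequence, 23.3% in coding exons and 24.6% in introns.

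Distal homopurine peaks lay further from transcript starts than distal alternating peaks, and many of both lay inside genes. The median distance to the nearest start was 27114 bp for alternating peaks and 54103 bp for homopurine peaks, and 22.9% and 38.8% of them were more than 100 kb away. Over all distal peaks these values were 31388 bp and 27.4%. Alternating peaks lay in introns in 55.9% of cases and between genes in 41.6%, and homopurine peaks in 39.4% and 59.8%. The genome assembly marked more than 50% of the bases as repeats in 96.1% of homopurine peaks, 34.6% of alternating peaks and 1.69% of distal CpG-rich peaks. In the 589 distal peaks of no special kind this share was 41.1%. The 888 distal peaks that were CpG-rich and without runs were placed differently: 305 of them (34.3%) had their midpoint in a coding exon, and 227 (25.6%) were within 1 kb of the start of a gene that is not protein-coding.

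Among the 24 constructs TEAD1-HA ranked first in promoter share, just ahead of RHOX11-HA, and first in GC content. Its promoter share was 46.7%, against a mean of 14.3% over the other 23 (exact permutation test of the label over constructs, two-sided, p = 0.0417, the smallest this design allows). With 1 TEAD1-HA list this p says only that it ranks first of 24. RHOX11-HA followed at 46.1% and TOX3-HA at 42.0%, so TEAD1-HA and RHOX11-HA differed by less than 1 percentage point. RHOX11-HA came first with promoters limited to 500 bp (44.2% against 43.4%) and with peaks of at least 300 bp (62.4% against 59.8%), and the exact permutation test then gave p = 0.0833. The median GC content of the central 200 bp was 64.0%, against a mean of 47.5% over the others and 60.5% in TOX3-HA (exact permutation test, p = 0.0417, again the first rank). That median lies between distinct groups of peaks, since promoter peaks had a median of 74.0%, distal alternating peaks 47.5% and distal homopurine peaks 35.5%. In the promoter peaks of other constructs the CpG-rich share ran up to 79.3% in TOX3-HA and 70.7% in RHOX11-HA.

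The chance that a gene start had a TEAD1-HA peak followed its base composition. Of the 93462 transcript starts, those with 40 to 50% G or C in the surrounding 200 bp had a peak within 1 kb in 3.31% of cases, those with 50 to 60% in 7.95%, with 60 to 70% in 30.6%, with 70 to 80% in 75.1% and with 80 to 90% in 81.0% (79.2 to 82.6%). Within a class of GC content the share also differed by CpG steps, though GC content can still differ within a class and a comparison at equal GC content was not made. At 60 to 70%, the share was 37.1% of starts with a CpG ratio of at least 0.65 and 16.6% of the others, and at 70 to 80% it was 76.2% and 48.7%. Starts of 1 gene lie close together and share peaks, so they are not independent.

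**Figure D4:**
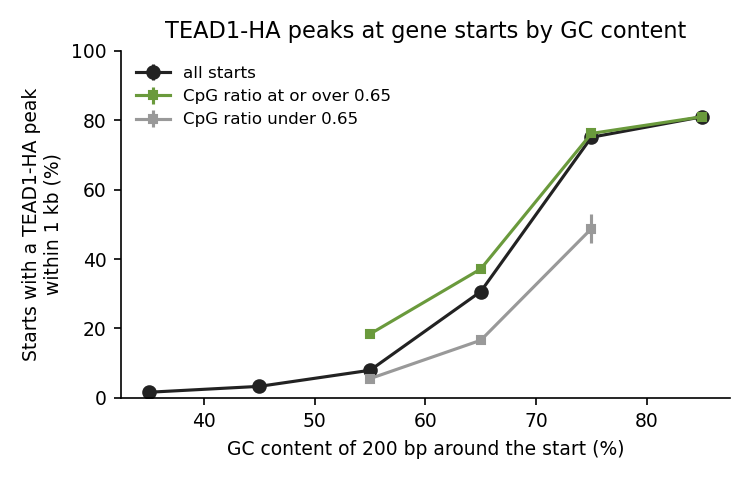
Share of transcript starts with a TEAD1-HA peak within 1 kb (y axis, %) by GC content of the 200 bp around the start (x axis, %, in classes of 10), for all starts and split by the ratio of observed to predicted CpG steps; bars are 95% exact intervals. The share goes from 1.61% at 30 to 40% GC to 81.0% at 80 to 90%, and is higher with more CpG steps in each class where both can be shown.

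In terms of genes, 7188 of 21938 protein-coding genes (32.8%) had a promoter peak. For the 12068 genes with a CpG-rich start the share was 54.9%, and for the 9870 others it was 5.72%. A distal peak lay within 50 kb of a start for 33.2% of genes. These 3 shares are the background for the gene groups that follow, for which counts alone are given, with no test.

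Of 31 Hippo pathway components, 21 had a promoter peak, and all 21 were among the 28 with a CpG-rich start. In the TEAD family itself, Tead1, Tead3 and Tead4 had a promoter peak and Tead2 did not. The peak at Tead1 was 832 bp wide (chr7:112679222-112680053, 79.5% G or C at its centre) and was the only peak in the gene, with none on its coding exons. Both co-activator genes, Yap1 and Wwtr1, had promoter peaks, of 703 and 595 bp. Among the kinases, Lats1, Lats2, Stk3 and Taok1 had 1, and Stk4, Taok2 and Taok3 did not. The adaptor and scaffold genes Sav1, Mob1a, Mob1b, Nf2, Wwc1, Wwc2 and Frmd6 all had 1.

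Among genes whose products bind YAP1 or TEAD proteins, Amotl2, Ptpn14, Vgll3 and Vgll4 had promoter peaks, and Amot, Amotl1, Vgll1 and Vgll2 did not. Of the atypical cadherins, Dchs1 had 1 and Fat1 and Fat4 did not, although a distal alternating peak lay 1204 bp from a start of Fat4. The peak nearest the start was CpG-rich for 20 of the 21 genes, with an alternating run at Nf2 in the remaining case, and held CATTCC for 2 of them, Tead4 and Amotl2. Distal peaks within 50 kb were found at 8 of the 31 genes (25.8%), 9 peaks in all, of which 7 held a run and 2 were CpG-rich.

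Of 28 genes known to be activated through YAP, TAZ and TEAD factors, 17 had a promoter peak, all among the 22 with a CpG-rich start (77.3%). Ccn2, which encodes a matrix protein and is the standard reporter of YAP activity, had a CpG-rich peak of 390 bp 119 bp from a start, without CATTCC. Promoter peaks were also present at Crim1, Tgfb2, Nt5e, Arhgef17, Asap1, Foxf2, Gadd45a, F3, Igfbp3, Birc5 and Areg, and at Tead1, Lats2, Wwc1, Amotl2 and Ptpn14, which are in both groups. The nearest peak held CATTCC at Amotl2 alone among these 17. Ccn1 and Ankrd1, the other classical targets, had no promoter peak, and their nearest peaks were 43728 bp and 62662 bp away. Axl, Ajuba, Fjx1, Dock5, Rbms3, Myof, Nuak2, Myc and Fgf1 had none either. Distal peaks within 50 kb were found at 15 of the 28 genes (53.6%), and 14 of these 19 peaks held a run.

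Of 10 muscle genes classically controlled through MCAT elements, Ckm, muscle creatine kinase, had a promoter peak, 717 bp from a start and CpG-rich. The other genes, among them Tnnt2 and Myh7, had no promoter peak. Distal peaks lay within 50 kb of 5 of the 10, including an alternating peak 16544 bp from a start of Tnnt2. None of the 10 has a CpG-rich start.

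Among genes with roles in fibroblasts, 6 of 16 actin cytoskeleton genes had a promoter peak, including Actg1, Tpm1 and Tpm4 but not Actb or Acta2, and all 6 were among the 13 with a CpG-rich start (46.2%). Of 13 genes of the Fos, Jun and ATF3 family 7 had 1, including Fosl2, Jun and Jund but not Fos or Fosb, and the peak at Jun held an alternating run. Of the 11 with a CpG-rich start, 6 had a promoter peak (54.5%). Of 44 collagen genes 14 had 1, including Col2a1 and the divergent pair Col4a1 and Col4a2, which share a peak, but not Col1a1 or Col1a2, the chains of the main fibroblast collagen. Collagen genes with a CpG-rich start had a peak in 12 of 16 cases.

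In several groups of housekeeping genes the share with a peak was under the 54.9% of all genes with a CpG-rich start. DNA replication licensing and origin genes had peaks at 4 of 24 (16.7%), including Mcm3, Mcm6 and Orc2 but not Mcm2 or Mcm4. Cytosolic ribosomal protein genes with a CpG-rich start had 1 in 25.4% of cases, with peaks at Rpl3, Rpl5 and Rpl13 and none at Rpl4 or Rpl6. The share was 24.2% for respiratory chain and ATP synthase genes, with peaks at Atp5a1, Atp5d and Atp5g2 and none at Atp5b or Atp5c1. It was 25.7% for proteasome genes, with peaks at Psma3, Psma4 and Psma6 and none at Psma1 or Psma2. It was 26.9% for Mediator genes, with peaks at Med8, Med10 and Med12l and none at Med1 or Med4.

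Replication-dependent histone genes had promoter peaks at 2 of 67, Hist1h3e and Hist3h2ba, while Hist1h1a and Hist1h1b had none, and 26 of the 67 have a CpG-rich start. Numbered Zfp genes, mostly zinc finger proteins, had a peak in 44.6% of the 224 with a CpG-rich start, among them Zfp1, Zfp2 and Zfp3 but not Zfp7 or Zfp9. Keratin genes had a peak at 2 of 49, Krt7 and Krt87, with none at Krt1 or Krt2. Olfactory receptor genes, which are silent in fibroblasts and have no CpG-rich start, had 1 at 4 of 1092 (0.366%), including Olfr94, Olfr323 and Olfr338 but not Olfr1 or Olfr2. Distal peaks lay within 50 kb of 12.9% of them.

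The largest numbers of distal peaks within 50 kb of a start were 6, at Ak5, Cdk14, Gse1, Nubp1, Pdzd2, Tbck and Tekt5. At Cdk14, a cyclin-dependent kinase gene, 5 of the 6 were homopurine. At Pdzd2 5 of the 6 were alternating. Nubp1 and Tekt5, both on chromosome 16, each counted 5 alternating and 1 homopurine. A peak within 50 kb of starts of more than 1 gene counts for each, so these need not be separate peaks.

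The widest peaks were largely of no special kind. Among the 10 widest, 6 were distal peaks without runs or CpG-rich centres, 1 was a distal CpG-rich peak and 3 were CpG-rich promoter peaks. The widest, of 2869 bp (chr11:3119443-3122311) and 2617 bp (chr11:3113288-3115904), lay beside Sfi1 and overlapped peaks of 17 and 6 other constructs. The promoter peaks were at Fam20c (1715 bp), Zbtb1 (1659 bp) and Tlnrd1 (1489 bp). The 5 widest peaks found in no other construct were in an intron of Unc45b, a myosin chaperone gene (chr11:82930108-82932296, 77.5% G or C), near Csnk1e (chr15:79461548-79463402), near Tmem161b (chr13:84358347-84360110), nearest to Gm3376 on chromosome Y, and in an intron of Tbc1d5 (chr17:50959138-50960737).

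Peaks were spread over all chromosomes, with 2.88 to 10.1 peaks per Mb of known sequence on the autosomes, 0.826 on X and 0.102 on Y. X held 0.902% of the TEAD1-HA peaks, near the median of 0.855% over the other constructs. The number of copies of each chromosome in these cells was not measured.

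Overlap with other constructs was concentrated at promoters. At least 1 bp was shared with a peak of another construct by 4068 of 6992 promoter peaks (58.2%) and by 855 of 7967 distal peaks (10.7%), which is a log2 odds ratio of 3.53 (exact test of Fisher, two-sided, with a p too small to be computed). Without BHLHB8-HA the shares were 29.4% and 7.37% (log2 odds ratio 2.38, Fisher's exact test, p = 2.42e-281). In all, 10036 TEAD1-HA peaks overlapped no other construct and 25 overlapped 10 or more. By kind, the shared part was 6.16% of distal alternating peaks, 9.24% of distal homopurine peaks, 24.5% of distal CpG-rich peaks and 23.3% of the other distal peaks.

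BHLHB8-HA, a basic helix-loop-helix factor with the longest lists, overlapped 54.5% of promoter peaks and 6.58% of distal peaks. Its replicates gave 35.4% and 51.9% of promoter peaks separately. TEAD1-HA in turn overlapped 5.42% of the BHLHB8-HA peaks. When the distal TEAD1-HA peaks were moved 5 kb downstream, BHLHB8-HA overlapped 3.64% of them. The gap lay in the peaks without runs. BHLHB8-HA overlapped 4.05% of distal alternating and 2.18% of distal homopurine peaks, against 3.81% and 2.70% when moved. At distal CpG-rich peaks and the other distal peaks its shares were 22.6% and 20.5%, against 5.07% and 5.77% when moved. DLX1-HA, a homeodomain factor, overlapped 11.4% of promoter and 1.86% of distal peaks (0.854% when moved), and EBF1-HA 5.94% and 1.14% (0.490% when moved). At distal alternating peaks DLX1-HA stood at 0.681% (0.928% when moved) and EBF1-HA at 0.186% (0.433% when moved). At distal homopurine peaks the shares were 0.614% (0.645% when moved) for DLX1-HA and 0.246% (0.184% when moved) for EBF1-HA. RHOX11-HA, another homeodomain factor, overlapped 8.80% and 0.515% (0.264% when moved), and 14.5% of its own 4579 peaks were shared. It overlapped 0.0928% of distal alternating and 0.0921% of distal homopurine peaks, against 0.186% and 0.276% when moved. TOX3-HA, an HMG-box factor, overlapped 4.61% and 0.753% of TEAD1-HA peaks (0.0753% when moved), and 29.7% (27.2 to 32.3%) of its own 1286 peaks were shared, the largest share of any list. At the promoter peaks of TOX3-HA this share was 59.8%, and at those of RHOX11-HA 29.3%. CpG-rich windows made up 79.3% and 70.7% of these promoter peaks. Among all genes with a CpG-rich start, 54.9% had a TEAD1-HA promoter peak, which is a share of genes and not of peaks.

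ZFP319-HA overlapped promoter and distal peaks alike, at 3.95% and 3.65%. The distal share was 0.715% when the peaks were moved 5 kb downstream. Of its 291 distal overlaps, 223 were at homopurine peaks, which is 6.84% of them, against 0.491% of the same peaks when moved. DLX6-HA overlapped 2.66% of promoter and 1.29% of distal peaks (0.879% when moved). Each of the other 16 constructs overlapped at most 1.33% of promoter and 1.44% of distal peaks. Their distal shares were above those of moved peaks, as in SIX6-HA (0.715% and 0.276%), SOX15-HA (0.577% and 0.213%) and BRACHYURY-HA (0.213% and 0.0251%), except in CDX2-HA (0.527% and 0.879%) and DUXBL-HA (0.590% and 0.778%), which were under them. The gap was small in SOX2-HA (1.44% and 1.14%) and MAX-HA (0.276% and 0.201%). In short lists such shares rest on few peaks, as in BRACHYURY-HA with 17 distal peaks and 2 when moved. Of those 17, 6 were CpG-rich and 9 of no special kind. The 19 distal TEAD1-HA peaks that overlapped 10 or more constructs count in the share of each construct they overlap. The differences from moved peaks were not tested.

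**Figure D5:**
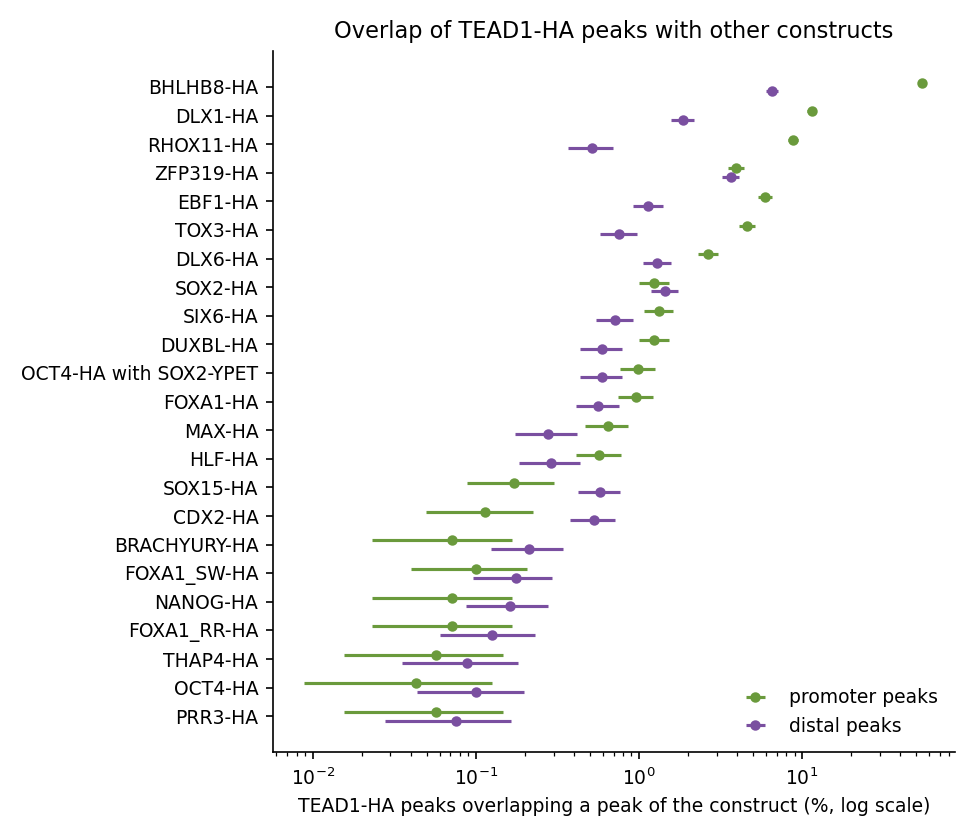
Share of TEAD1-HA promoter and distal peaks that overlap a peak of each of the other 23 constructs by at least 1 bp (x axis, %, log scale), with 95% exact intervals; constructs are in order of their share over all peaks. BHLHB8-HA leads with 54.5% of promoter peaks, and the shares of ZFP319-HA, 3.95% and 3.65%, have intervals that overlap.

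Genes with a CpG-rich start were also compared by whether they had a TEAD1-HA peak, though their GC content still differed. Among genes with a CpG-rich start, BHLHB8-HA had a promoter peak at 74.2% of the 6623 with a TEAD1-HA peak and at 66.6% of the 5445 without. The shares were 25.1% and 17.8% for DLX1-HA, 12.3% and 7.97% for EBF1-HA and 6.15% and 2.00% for TOX3-HA. For RHOX11-HA they ran the other way, at 15.6% and 22.1%. The lists differ in length, from 58 peaks in THAP4-HA to 83627 in BHLHB8-HA, and the part of list length in these shares was not tested.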

How the data were processed

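Anti-HA ChIP-seq was described for 29 samples in the labels, of which 28 have a deposited list of peaks and 1 is input, not used here. The authors aligned 37-base read pairs to mm10 with STAR 2.5.3a, removed duplicates with Picard, called peaks per sample with MACS2 2.1.1.20160309 and left out those touching a peak of the input or a blacklisted region. deepTools 2.4.2 is also named in the submitters' processing notes. The deposited files give chromosome, start and end in bp, and no score, count or height.

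Positions were set against the GRCm38 genome and the GENCODE vM21 annotation, and printed coordinates count from 1. SciPy 1.17.1, statsmodels 0.14.6, pandas 2.3.3 and NumPy 2.4.6 were run in Python 3.11.15, with plots in Matplotlib 3.10.9. Duplicate lists were merged per construct, and overlap required 1 bp. Motifs were read on both strands without mismatches in the central 200 bp, and tested with Fisher's exact test, in which peaks are the units, with Benjamini-Hochberg adjustment over 12 sequences and both parts of the list. Control windows of distal peaks lay 5 kb downstream. Stratified odds ratios used GC classes of 10 bases. Gene starts came from all transcripts of protein-coding genes, and the CpG-rich call of a gene from any of its starts. Intervals are 95% exact binomial. The run, motif and overlap counts were tested on simulated data.

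The members, gene lists and motifs were chosen with earlier results of these data known. Named genes were all members of the Hippo groups, the first 3 with and 2 without a promoter peak in other lists, the 10 widest peaks, the 5 widest peaks in no other construct, and the genes with the most distal peaks, where 7 shared the first place. The printed run sequences and the sequence kinds were chosen after the values were seen. Alternatives covered promoter width, peak width, autosomes, control windows, GC content, window size, overlap and single replicates.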

Additional observations from a re-analysis of the deposited data

How the results depend on the processing

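Of 51 alternatives with a test, 47 kept the direction and the side of the threshold of 0.05, but 16 of these left out a list of another construct and do not touch the TEAD1-HA value. The 4 others concern a count of genes with no test. The promoter share of TEAD1-HA was 43.4% (exact permutation test, p = 0.0833) with promoters of 500 bp and 59.8% (p = 0.0833) with peaks of at least 300 bp. In distal peaks and windows of no repeat or CpG-rich kind, an alternative added after the data were seen, the log2 odds ratio was -0.23 for CATTCC (Fisher's exact test, p = 0.274) and 0.33 for TGACTCA (p = 0.373), which turned its direction. That alternative holds 589 of the 7967 distal peaks. The cause was not tested. The number of genes with a promoter peak ran from 5264, with a peak over the start base, to 7548, with promoters of 2 kb. Leaving out single lists of the 4 duplicated constructs moved the log2 odds ratio of sharing between 3.01 and 3.55. No paired analysis was possible because the TEAD1-HA group has 1 list. Depth is unknown, and no value has an error between TEAD1-HA libraries.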
